A study of Mus musculus with 9 samples.

Results

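Genes of cortical intermediate progenitors and of the onset of neurogenesis were followed in mouse forebrain cells that had received GemC1, Mcidas or a reporter alone. They are Eomes, Neurog1, Neurog2, Insm1, Kif26b, Slc17a6, Gadd45g, Sstr2, Mfng and Bcl6, which makes 10 of the 53379 genes counted. They were taken by name, with their levels in these same 3 groups already known. Their values in all 3 comparisons are therefore given as a description, and a member that passes a test is counted but not used as support for anything.

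The series was designed to learn how GemC1 starts the multiciliated cell fate. Each library was made from forebrain cells of C57Bl6DBa2 embryos that carried GFP and were isolated by FACS at E16.5, 2 days after plasmids had been electroporated in utero at E14.5. The GemC1 group received pCAGGS-GemC1, the Mcidas group pCAAGS-Mcidas (spelled as in the labels) and the GFP group the H2B-GFP plasmid without either factor, with 3 libraries in each. Both factors belong to the geminin family and turn on the genes with which a cell builds many motile cilia. The pCAGGS promoter is strong and active in most cell types; which cells took up the plasmids was not measured. The labels do not say whether replicates came from separate embryos, litters or surgeries, or whether embryos were pooled. P-values then measure only the spread between these samples, which may be technical.

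In the embryonic cortex, radial glia divide at the ventricle and produce intermediate progenitors, which divide again to make excitatory neurons. Neurogenins, basic helix-loop-helix (bHLH) transcription factors, start this step, and Eomes (also called Tbr2) and Insm1 are expressed as cells become intermediate progenitors. Notch signalling from neighbouring cells opposes the step, and Bcl6 is known to promote neuronal differentiation by repressing the Notch target Hes5.

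Promoter sequences are shown for the transcription factors Neurog1, Neurog2 and Eomes. Neurog1 and Neurog2 are close relatives whose levels lay on opposite sides of GFP in Mcidas, and Eomes is a known target of neurogenins. Neither neurogenin had an adjusted p under 0.05 in Mcidas in the edgeR fit of all libraries. A link between these sequences and the levels was not tested. RefSeq promoter windows (build GRCm38.p6, 250 bases before to 50 after a start site) were matched for 8 of the 10 genes, with 10 windows in all. The 250 bases before the start site are given, 5′ to 3′ on the gene's own strand, with a TATA-type motif in capitals. Those of Eomes lie at chr9:118477939-118478188 (plus strand), those of Neurog2 at chr3:127632886-127633135 (plus strand) and those of Neurog1 at chr13:56252181-56252430 (minus strand).
Eomes: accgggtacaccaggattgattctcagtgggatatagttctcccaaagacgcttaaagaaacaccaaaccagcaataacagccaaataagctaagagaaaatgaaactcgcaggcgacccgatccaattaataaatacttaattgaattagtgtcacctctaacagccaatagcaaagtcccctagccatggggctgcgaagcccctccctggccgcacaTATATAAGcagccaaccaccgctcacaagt
Neurog2: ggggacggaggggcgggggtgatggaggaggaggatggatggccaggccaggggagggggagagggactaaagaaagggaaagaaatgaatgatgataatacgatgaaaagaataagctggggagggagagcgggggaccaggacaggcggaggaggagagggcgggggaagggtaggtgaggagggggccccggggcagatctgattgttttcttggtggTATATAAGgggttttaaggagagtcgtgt
Neurog1: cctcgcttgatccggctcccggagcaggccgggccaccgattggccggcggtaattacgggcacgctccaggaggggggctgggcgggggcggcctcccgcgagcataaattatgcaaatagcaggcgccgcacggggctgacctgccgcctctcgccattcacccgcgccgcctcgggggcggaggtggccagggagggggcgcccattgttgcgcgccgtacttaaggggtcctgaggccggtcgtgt

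The motif TATATAAG began 30 bases before the start site in Eomes and 29 bases before it in Neurog2. It was chosen after these letters had been read, and 1.01% of all 32851 windows in the table hold it on either strand. Neurog1 has no exact match, but its last 29 bases before the start site matched those of Neurog2 at 21 of 29 positions without gaps. Over the whole 250 bases Neurog1 and Neurog2 matched at 85 positions, and the last 29 bases of Eomes matched those of Neurog2 at 6 and those of Neurog1 at 8. GC content of the 250 bases was 46.4% in Eomes, 58% in Neurog2 and 71.2% in Neurog1. A shorter variant, TATAAA, began 27 bases before the start site of Gadd45g (13.6% of all windows hold it). On either strand of the 10 windows, the neurogenin-type E-box CAGATG stood only in Slc17a6 (17.2% of all windows hold it) and so did the T-box core AGGTGT (13.7%). Each stood in window 2 of Slc17a6, at chr7:51624387-51624686 inside the gene, and window 1 of Slc17a6 held neither. The core TGGGAA of RBPJ, the DNA-binding partner of Notch, stood in Kif26b and Gadd45g (25.6% of all windows). It lay after the start site, 28 bases from it in Kif26b (opposite strand) and 35 bases from it in Gadd45g. Neither E2F motif searched (TTTCCCGC, in 1.07% of all windows, and TTTGGCGC, in 0.514%) was found in a window of these genes. None of the motifs overlapped another in these windows.

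The genes lie apart in the genome (build GRCm38, whole gene from first to last exon base). Among the transcription factors, Eomes (ENSMUSG00000032446) lies at chr9:118478212-118486132 on the plus strand, and Neurog2 (ENSMUSG00000027967) at chr3:127633135-127635631 on the plus strand. Neurog1 (ENSMUSG00000048904) is a gene of 1 exon at chr13:56250478-56252163 on the minus strand, and Insm1 (ENSMUSG00000068154) one of 1 exon at chr2:146221921-146225020 on the plus strand. Bcl6 (ENSMUSG00000022508) lies at chr16:23965052-23988852 on the minus strand. Mfng (ENSMUSG00000018169) lies at chr15:78755882-78773475 on the minus strand, and Gadd45g (ENSMUSG00000021453) at chr13:51846678-51848468 on the plus strand. On the plus strand too are Sstr2 (ENSMUSG00000047904) at chr11:113619342-113626028, Slc17a6 (ENSMUSG00000030500) at chr7:51622006-51671119 and Kif26b (ENSMUSG00000026494) at chr1:178529125-178939200.

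Total counts per library ran from 22914704 to 41163917, and levels are given as CPM (counts relative to a library total scaled by TMM). A level of 0.0736 to 0.130 CPM, depending on the library, equals 3 counts. Foxj1, a forkhead factor of motile cilia, was below 2 CPM in each GFP library. It stood at 121, 99.6 and 139.9 CPM in GemC1 replicates 1, 2 and 3, and at 95.8, 170.2 and 183.3 CPM in Mcidas replicates 1, 2 and 3. The label calls the cells neural progenitors, and genes of neurons and of radial glia were both expressed. In GFP the neuronal tubulin Tubb3 was at 557 CPM per kilobase of exon and the neuronal gene Rbfox3 at 16.2. Among radial glia genes, Fabp7 was at 322, the progenitor factor Sox2 at 22.8 and Pax6 at 5.98. Levels differed widely within each list, so such single markers do not give the share of a cell type. Summed levels of 16 microglia and macrophage markers were 33.1 to 48.3 CPM in GFP, 81.6 to 116 CPM in GemC1 and 48.9 to 72.5 CPM in Mcidas, with no marker at 0 in a whole group. Summed levels of 15 interneuron genes overlapped between all groups (202 to 348 CPM), as did those of 8 oligodendrocyte progenitor genes (180.2 to 370.3 CPM). Of 15 tested microglia genes, 9 rose in GemC1 and 2, P2ry12 and C1qb, in Mcidas by edgeR (11 and 3 by DESeq2). Without GemC1 replicate 1, GFP replicate 2 or GFP replicate 3 the GemC1 count was 4. P2ry12 in Mcidas was not called in 8 of 16 alternatives, and C1qb was called in all 16. Of 12 genes of the multiciliated programme, 12 rose in GemC1 and 11 in Mcidas. The list includes Gmnc (the gene of GemC1) and Mcidas, which the plasmids carried. A rise of either in its own group is therefore no sign of induction. Gmnc was the gene not called in Mcidas by edgeR. No gene of the oligodendrocyte progenitor (8 tested) or endothelial and pericyte (8) lists was called by edgeR. At an unadjusted p under 0.05, Sox10, Kdr and Abcc9 were lower in GemC1 than in GFP and than in Mcidas, and no other gene of these lists differed. DESeq2 called Kdr lower in GemC1 against GFP, and no other gene of these lists. The files of the Mcidas libraries bear a different year code from those of GemC1 and GFP. If that code stands for a batch, batch and Mcidas cannot be told apart.

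Among the 10 genes, the clearest pattern was a lower level of Kif26b, Neurog2, Slc17a6 and Bcl6 in both factor groups than in GFP, while in Mcidas Neurog1 lay higher and Sstr2 lower without overlap, and both overlapped with GFP in GemC1. Eomes, Insm1, Gadd45g and Mfng overlapped with GFP in both. In edgeR's quasi-likelihood test over 19572 genes, with a Benjamini-Hochberg adjusted p under 0.05, 1 of the 10 was called lower in GemC1 (Neurog2) and none higher. In that comparison 5.19% of all tested genes were called, 1.32% lower and 3.86% higher. In Mcidas 3 of the 10 were called lower (Kif26b, Slc17a6 and Bcl6) and none higher, where 4.35% of all genes were called, 0.327% lower and 4.03% higher. Between GemC1 and Mcidas none was called, and 0.0511% of all genes were, 0.0153% higher in GemC1 and 0.0358% lower. At an unadjusted p under 0.05 the counts were 4 lower and 0 higher in GemC1, 6 lower and 1 higher in Mcidas, and 2 higher in GemC1 than in Mcidas. Over all tested genes that threshold was passed by 9.03% lower and 10.4% higher in GemC1, 3.97% lower and 8.65% higher in Mcidas, and 6.37% higher and 6.67% lower in GemC1 than in Mcidas. DESeq2 called 2 lower in GemC1, 3 lower in Mcidas and 1, Kif26b, higher in GemC1 than in Mcidas, and none in the other directions. Over all genes it called 3.1% lower and 5.5% higher in GemC1, 0.496% lower and 4.7% higher in Mcidas, and 1.05% higher and 1.73% lower in GemC1 than in Mcidas. All 10 passed the filter on low counts. Both factor groups were compared with the same 3 GFP libraries, so a lower level in both is not a repeat by independent controls. Means of both factors were below the GFP mean for 7 of the 10, and for 36.3% of tested genes. The share of all genes lower without overlap in both groups was not counted.

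**Figure D1:**
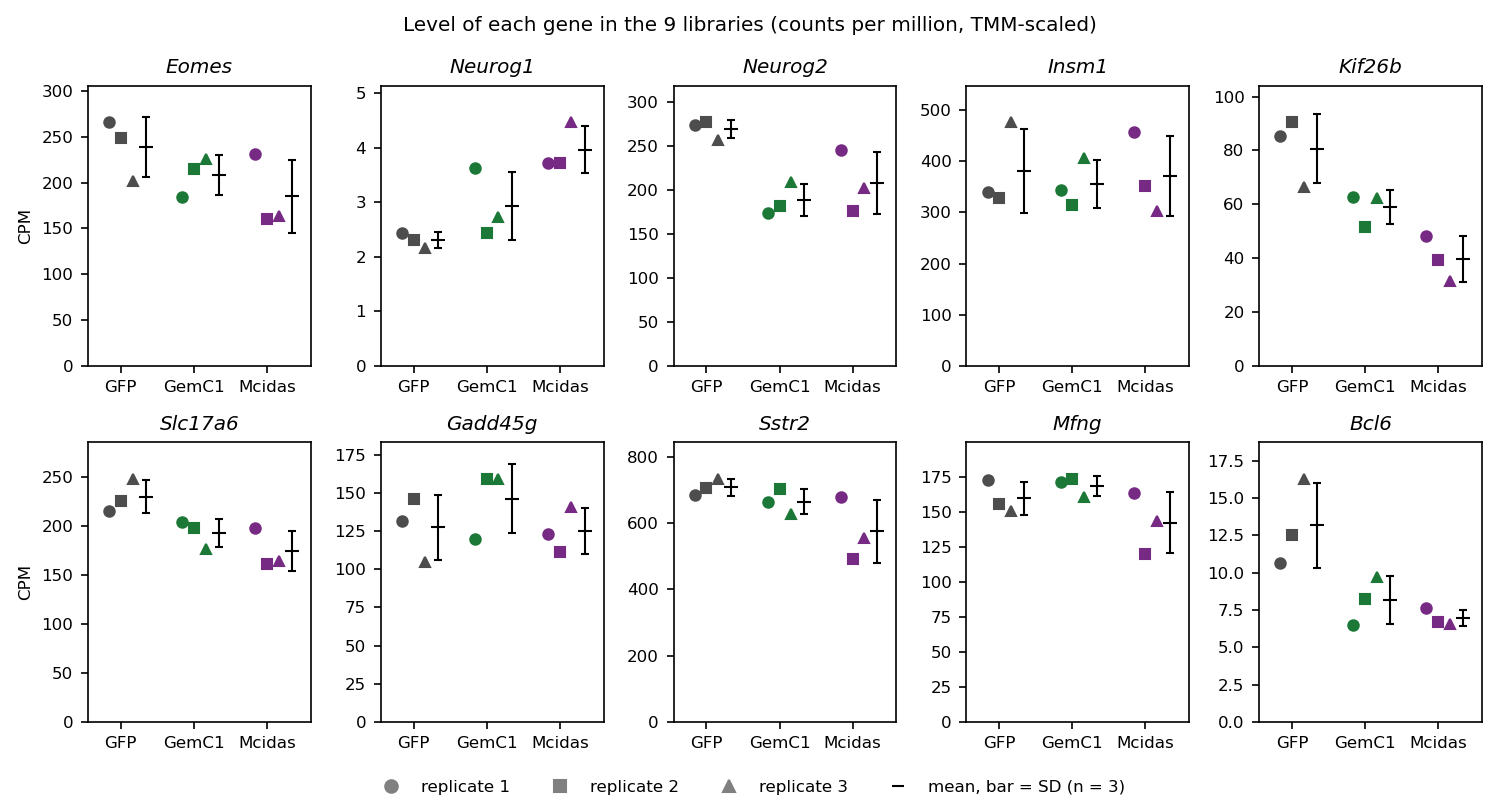
Level of each of the 10 genes in CPM (vertical axes from 0), with 1 symbol per library, grouped as GFP, GemC1 and Mcidas, and the mean with its SD (n = 3) beside each group. Kif26b, Neurog2, Slc17a6 and Bcl6 lie below every GFP library in both factor groups, and Neurog1 lies above every GFP library in Mcidas.

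Neurog2 is the main proneural factor of the dorsal forebrain. Its level was 274, 277 and 257 CPM in GFP replicates 1, 2 and 3. It was 173, 182 and 209 CPM in the GemC1 libraries and 245, 175 and 202 CPM in the Mcidas libraries. All 6 factor libraries were below all 3 GFP libraries, and Mcidas replicate 1 was the closest to them. The log2 fold change was -0.52 ± 0.11 (SE) in GemC1, and -0.37 ± 0.11 in Mcidas, which was not called. Of all tested genes, 11.7% lay lower without overlap in GemC1 and 8.87% in Mcidas. The GemC1 call was lost without GemC1 replicate 1 or 2, or without GFP replicate 1, 2 or 3, with log2 fold changes from -0.60 to -0.46 over all 16 alternatives. In bulk samples, fewer cells of a type and less RNA per cell cannot be told apart.

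Neurog1, the second neurogenin, was scarce, with 72 to 129 counts per library. It was at 2.44, 2.31 and 2.16 CPM in GFP, at 3.63, 2.44 and 2.73 CPM in GemC1, and at 3.71, 3.71 and 4.46 CPM in Mcidas. The 3 Mcidas libraries were above all GFP and all GemC1 libraries, and GemC1 overlapped with GFP. The log2 fold change was 0.78 ± 0.25 (SE) in Mcidas and 0.35 ± 0.25 in GemC1, and neither was called. Per kilobase of exon, Neurog1 was 1.13 ± 0.0402% (SD, n = 3) of Neurog2 in GFP, 2.09 ± 0.587% in GemC1 and 2.57 ± 0.494% in Mcidas. In each of the 6 factor libraries the share, from 1.73% to 2.91%, was above the GFP range of 1.10% to 1.18%. The share sets against each other genes chosen with their levels known. In GemC1 Neurog1 overlapped with GFP, whereas Neurog2 lay below it without overlap. No test was made of this share, and no share over other gene pairs was counted.

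Eomes, a T-box factor that defines intermediate progenitors, was at 266, 249 and 202 CPM in GFP, at 184, 215 and 226 CPM in GemC1, and at 231, 160.5 and 163 CPM in Mcidas. GFP replicate 3 was below 2 GemC1 libraries and 1 Mcidas library, so the groups overlapped. The log2 fold changes were -0.20 ± 0.14 (SE) in GemC1 and -0.37 ± 0.14 in Mcidas. Without Mcidas replicate 1 the Mcidas value was -0.55 and was called. Set against Sox2, whose level was 46.8 ± 5.65 CPM (SD, n = 3) in GFP, 64.2 ± 10.1 CPM in GemC1 and 53.3 ± 5.66 CPM in Mcidas, Eomes gave a ratio per kilobase of 2.48 to 2.58 in GFP and 1.45 to 1.70 in GemC1. In Mcidas this ratio was 2.43 in replicate 1 and 1.46 and 1.39 in replicates 2 and 3. Sox2 itself lay higher than GFP in GemC1 without overlap, as did 13.2% of tested genes, so the ratio mixes the values of both genes. Of 20 radial glia genes 15 had a log2 fold change above 0 in GemC1, but Nes had -0.08 ± 0.14 (SE). Ratios of Eomes to other genes of that list were not taken, and the ratio was not tested. Eomes shares 118 of its 4155 exon bases with Gm33460 on the opposite strand, and neither library kit marks strand.

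Insm1, a zinc finger factor that promotes the formation of intermediate progenitors, did not separate the groups. It was at 341, 328 and 476 CPM in GFP, at 343, 315 and 408 CPM in GemC1, and at 457, 353 and 303 CPM in Mcidas. The spread within a group was larger than the differences between groups, with log2 fold changes of -0.10 ± 0.17 (SE) in GemC1 and -0.04 ± 0.17 in Mcidas.

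Bcl6, a zinc finger repressor that opposes Notch output, was low and lay lower in both factor groups. It was at 10.7, 12.5 and 16.3 CPM in GFP, at 6.49, 8.23 and 9.70 CPM in GemC1, and at 7.60, 6.70 and 6.58 CPM in Mcidas. Every factor library was below every GFP library. The log2 fold change was -0.69 ± 0.20 (SE) in GemC1, not called, and -0.92 ± 0.20 in Mcidas. In Mcidas, 4 of 16 alternatives ended the call, each time by leaving out 1 library (Mcidas replicate 2 or 3, or GFP replicate 2 or 3). In GemC1 the gene was called by DESeq2 and by edgeR without a low-count filter. Only 21 of its 6700 exon bases are shared with a gene on the opposite strand. Bcl6 is also expressed in immune cells, whose summed microglia markers were higher in both factor groups, and their part in the Bcl6 values was not tested.

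Mfng encodes Manic fringe, an enzyme that adds sugars to Notch receptors. It was at 173, 155 and 150.4 CPM in GFP, at 171, 174 and 160.4 CPM in GemC1, and at 163, 119.8 and 143 CPM in Mcidas, with overlap between all groups. Gadd45g, a growth arrest and stress gene that is also high in newborn neuronal precursors, was at 131, 146 and 105 CPM in GFP. Its levels were 120.0, 159 and 159 CPM in GemC1 and 123, 111 and 141 CPM in Mcidas, again with overlap. Log2 fold changes in GemC1 and Mcidas were 0.08 ± 0.11 (SE) and -0.17 ± 0.11 for Mfng, and 0.20 ± 0.14 and -0.03 ± 0.14 for Gadd45g.

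Kif26b, a kinesin-family protein known from noncanonical Wnt signalling, showed the lowest Mcidas level relative to GFP of the 10 genes. It was at 85.3, 90.4 and 66.2 CPM in GFP, at 62.6, 51.5 and 62.5 CPM in GemC1, and at 48.3, 39.3 and 31.5 CPM in Mcidas. The 3 groups did not overlap and stood in the order GFP, GemC1, Mcidas. The log2 fold change was -1.02 ± 0.16 (SE) in Mcidas, -0.45 ± 0.16 in GemC1, and 0.57 ± 0.16 for GemC1 against Mcidas. The Mcidas call held in all 16 alternatives, with values from -1.18 to -0.88. The difference between GemC1 and Mcidas was called by DESeq2 and in no other alternative. Of its 14696 exon bases, 909 are shared with Gm16564 on the opposite strand, which had 101 to 494 counts per library, against 727 to 3680 for Kif26b.

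Slc17a6, the vesicular glutamate transporter VGLUT2 of early glutamatergic neurons, was at 215, 225 and 248 CPM in GFP, at 204, 197 and 176 CPM in GemC1, and at 197, 161 and 164 CPM in Mcidas. Both factor groups lay below GFP without overlap. The log2 fold change was -0.40 ± 0.10 (SE) in Mcidas and -0.25 ± 0.10 in GemC1, where it was not called. Among the fits that left out 1 library, that call did not hold without Mcidas replicate 2 or 3 or without GFP replicate 1, 2 or 3. Sstr2, a somatostatin receptor, had the highest level of the 10 genes, both in CPM and per kilobase. It was at 684, 706 and 735 CPM in GFP, at 663, 705 and 628 CPM in GemC1, and at 681, 493 and 554 CPM in Mcidas. Mcidas lay below GFP, with replicate 1 just under the lowest GFP library, and the log2 fold change was -0.30 ± 0.11, not called. In GemC1 it overlapped with GFP at -0.09 ± 0.11.

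**Figure D2:**
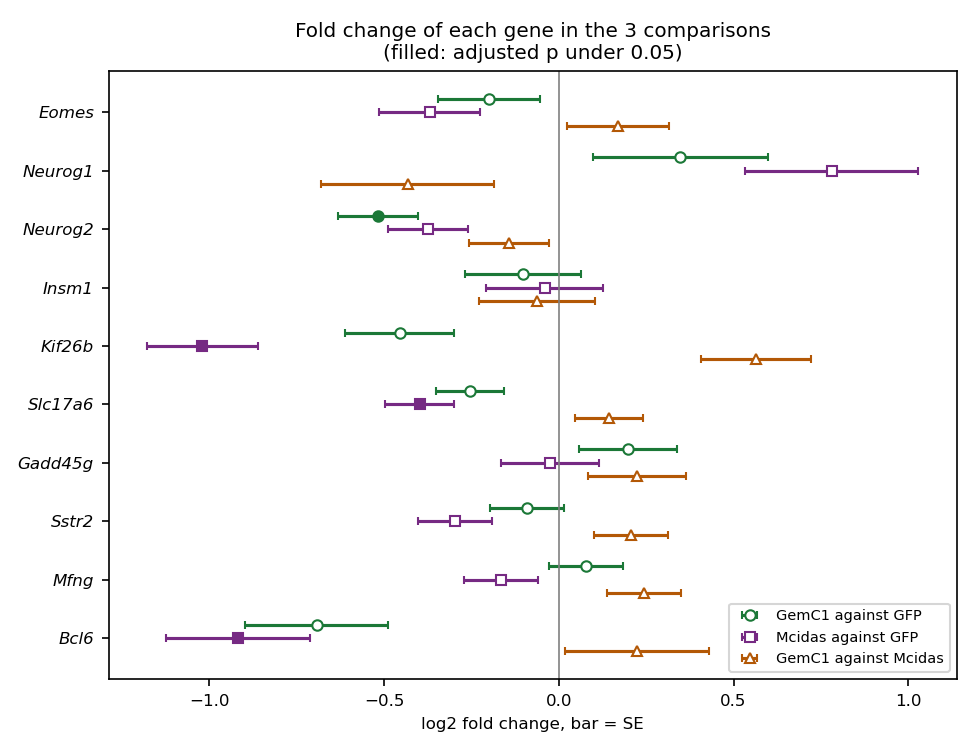
Log2 fold change with its standard error for each of the 10 genes (horizontal axis) for the 3 comparisons, each factor with GFP and GemC1 with Mcidas; filled symbols passed an adjusted p under 0.05. Filled symbols stand at Neurog2 in GemC1 (-0.52) and at Kif26b (-1.02), Slc17a6 (-0.40) and Bcl6 (-0.92) in Mcidas.

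As a group, 4 of the 10 genes lay lower than GFP without overlap in GemC1, and 5 lower and 1 higher in Mcidas. Over all tested genes 11.7% and 8.87% lay lower without overlap, and 10.7% lay higher in Mcidas; in either direction the shares were 24.9% and 19.5%, with 13.2% higher in GemC1. Between the factors, Kif26b lay higher and Neurog1 lower in GemC1 without overlap, where 9.07% of tested genes lay higher, 7.64% lower and 16.7% either way. The median log2 fold change of the 10 was -0.15 in GemC1 and -0.33 in Mcidas, beside medians of 0.00 and -0.03 over all tested genes. Group means fell in the order GFP, GemC1, Mcidas for 5 of the 10 (Eomes, Kif26b, Slc17a6, Sstr2 and Bcl6), as they did for 14.3% of tested genes. Per kilobase of exon in GFP, levels ran from 330.4 for Sstr2, through 123 for Insm1, 121 for Neurog2 and 108 for Gadd45g, to 57.5 for Eomes, 56.2 for Mfng and 42.5 for Slc17a6. Kif26b at 5.49, Bcl6 at 1.97 and Neurog1 at 1.37 were far lower. Insm1, Neurog2 and Gadd45g did not differ beyond their spread in that order, nor did Eomes and Mfng.

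Mcidas replicate 1 stood apart from the other Mcidas libraries for most of these genes. It was the Mcidas library closest to the GFP mean for 8 of the 10, as it was for 42% of all tested genes, and it also had the lowest Foxj1 of the 3. The median distance of the 10 genes from the GFP mean, on the log2 scale, was -0.05 in Mcidas replicate 1, -0.52 in replicate 2 and -0.38 in replicate 3. In the GemC1 libraries it was -0.16, -0.18 and -0.13. Without Mcidas replicate 1, 6 genes were called lower in Mcidas (Eomes, Neurog2, Kif26b, Slc17a6, Sstr2 and Bcl6), and 0.495% of all tested genes were. Without Mcidas replicate 2 or 3, or GFP replicate 2 or 3, Kif26b alone was called, where 0.144%, 0.163%, 0.15% and 0.175% of all tested genes were called lower, in that order. Neurog1, however, was as high in Mcidas replicate 1 as in replicate 2. Kif26b, Neurog2, Slc17a6, Bcl6 and Sstr2 were below every GFP library there too, Sstr2 only just (681 against 684 CPM in GFP replicate 1).

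**Figure D3:**
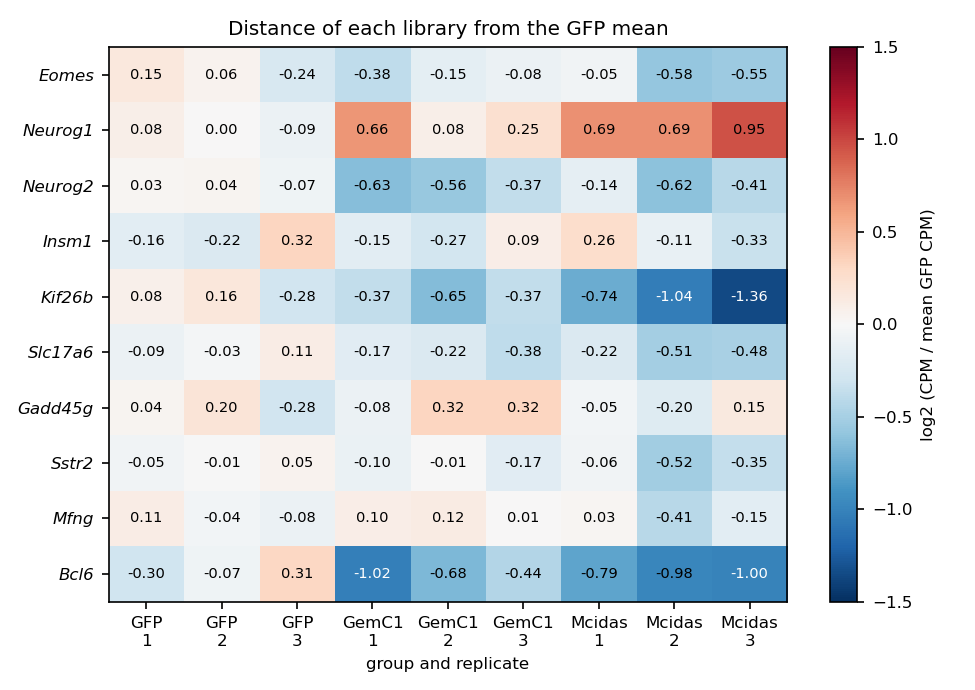
Log2 of each library's CPM over the mean GFP CPM, for the 10 genes (rows) and the 9 libraries (columns); blue is below and red above the GFP mean. Mcidas replicate 1 is near 0 for Eomes (-0.05), Sstr2 (-0.06) and Mfng (0.03), where replicates 2 and 3 are below. Neurog1 is the only row above the GFP mean in every GemC1 and Mcidas library, and Gadd45g, Mfng and Insm1 lie above it in some of them.

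Over the 9 libraries the 10 genes formed 45 pairs, of which 32 had a positive Pearson correlation of log2 CPM, with a median of 0.35. The highest was 0.89 between Slc17a6 and Sstr2, and the lowest was -0.87 between Neurog1 and Bcl6. These points share libraries and group differences, so the values only describe the 9 libraries. Among 10073 well-expressed named genes, the patterns most like that of Neurog2 were those of Cntnap2 (r = 0.96), Myt1 (0.92) and Rnf103 (0.91). For Eomes they were LTO1 (0.95), Accs (0.94) and Oard1 (0.91), for Insm1 Gpr173 (0.93), Sox12 (0.93) and Senp8 (0.89), and for Kif26b Snx2 (0.96), Birc6 (0.94) and Foxp4 (0.94).

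Close relatives of the 10 genes were read in the same fit, since a shift within a family could offset a change. Of 16 relatives 13 were tested and none was called in any comparison. At an unadjusted p under 0.05, 4 were higher and 0 lower in GemC1, 4 higher and 1 lower in Mcidas, and 0 differed between the factors. DESeq2 called 3 higher in GemC1 (Tbx21, Insm2 and Lfng), 2 higher in Mcidas (Tbx21 and Slc17a8) and none between them. Leaving out 1 library made at most 2 of them called in a comparison, Tbx21 without GemC1 replicate 3, Lfng and Slc17a8 without Mcidas replicate 1, and Sstr3 without Mcidas replicate 3. Tbr1, the T-box factor that follows Eomes in postmitotic neurons, had -0.23 ± 0.13 (SE) in GemC1 and -0.15 ± 0.13 in Mcidas. The glutamate transporter Slc17a7 had -0.35 ± 0.18 and -0.21 ± 0.18, and Kif26a -0.29 ± 0.19 and -0.04 ± 0.19. Gadd45a had -0.03 ± 0.20 and -0.14 ± 0.20, and Gadd45b 0.64 ± 0.41 and 0.03 ± 0.42. Lfng, the fringe enzyme of radial glia, had 0.84 ± 0.26 in GemC1 (adjusted p = 0.0854) and 0.67 ± 0.26 in Mcidas (adjusted p = 0.267).

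A few relatives that were nearly silent in GFP had counts in the factor libraries. Tbx21, the T-box relative of Eomes known from lymphocytes, had 0 counts in each GFP library. It had 19, 25 and 0 counts in GemC1 replicates 1, 2 and 3 and 40, 12 and 7 in the Mcidas libraries (adjusted p = 0.0582 and 0.0534). Insm2 had 3, 7 and 0 counts in GFP, 15, 10 and 45 in GemC1, and 4, 26 and 23 in Mcidas (adjusted p = 0.104 and 0.22). The levels of Tbx21 and Insm2 stayed under 1 CPM in every group mean. Both Tbx21 and the microglia sum were lowest in GFP, but among the factor libraries Tbx21 was highest in Mcidas replicate 1, where that sum was lowest (48.9 CPM), and at 0 in GemC1 replicate 3, where it was 90.5 CPM. The part of immune cells in the Tbx21 counts was not tested.

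**Figure D4:**
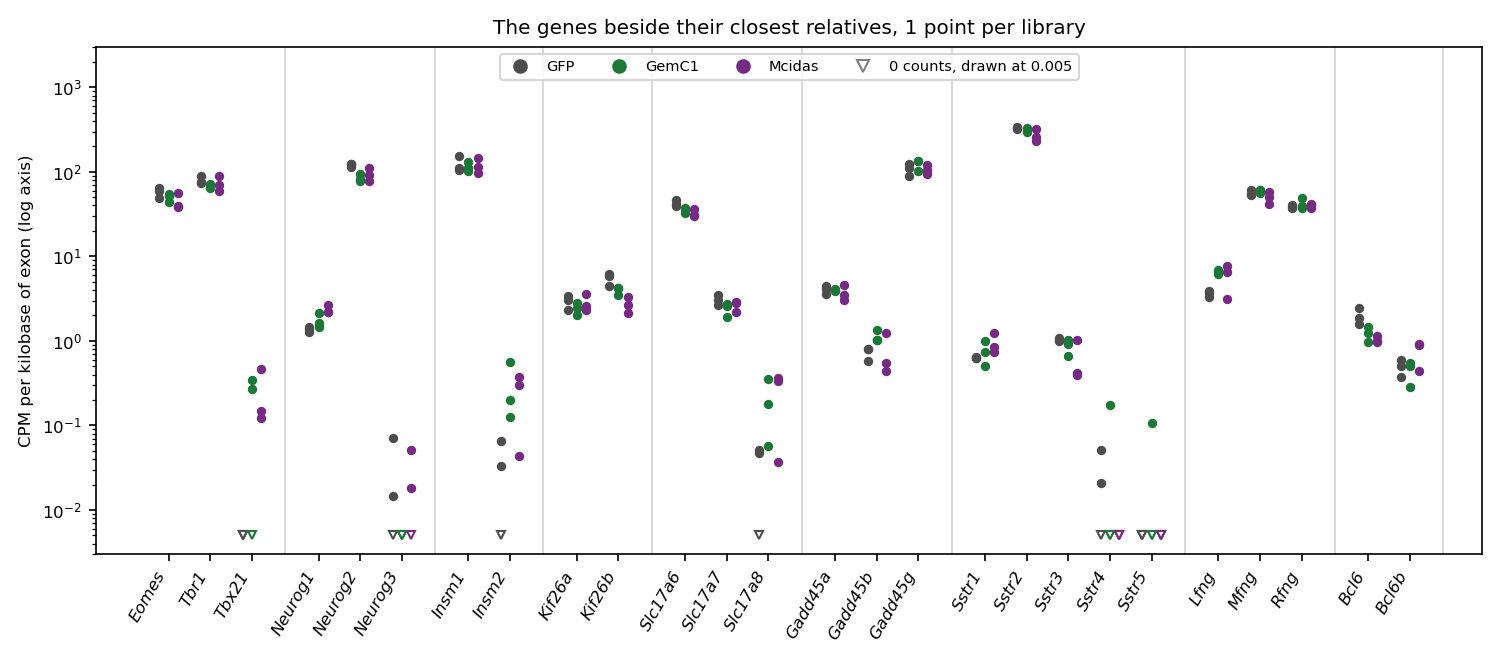
CPM per kilobase of exon (log axis) of the 10 genes and their closest relatives, grouped by family, with 1 point per library and open triangles for libraries at 0 counts. Sstr2, Insm1, Neurog2 and Gadd45g stand well above their relatives, whereas Eomes lies near Tbr1 and Mfng near Rfng, and Tbx21 is at 0 in every GFP library.

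Other genes known from intermediate progenitors and newborn neurons had a summed level of 7185 to 8075 CPM in GFP, 6252 to 6664 CPM in GemC1 and 6177 to 7297 CPM in Mcidas. The GemC1 sums thus lay below those of GFP, but abundant genes weigh most in a sum. Mean levels in GFP and GemC1 were 2577 and 2418 CPM for Sox4, and 1648 and 1031 CPM for Sox11. The lower sum is therefore no statement about most genes of the list. Of 21 tested, 1 rose and 1 fell in GemC1 (edgeR) and none was called in Mcidas or between the factors. Their median log2 fold change was -0.14 in GemC1, -0.21 in Mcidas and 0.09 between GemC1 and Mcidas, with 7, 4 and 13 of 21 above 0. Hes6, a bHLH factor that promotes neurogenesis, rose from 323 ± 28.9 to 401 ± 9.57 CPM (SD, n = 3) in GemC1 (adjusted p = 0.0498), a call lost in 10 of 16 alternatives, among them leaving out any library other than GFP replicate 1. Sox11, a factor of immature neurons, fell from 1648 ± 353 to 1031 ± 70.9 CPM (SD, n = 3, adjusted p = 0.0416), a call lost in 8 of 16. At an unadjusted p under 0.05 there were 3 higher and 7 lower in GemC1, where DESeq2 called 2 higher (Hes6 and Tfap2c) and 3 lower (Neurod1, Elavl2 and Sox11). At the same threshold there were 7 lower and 0 higher in Mcidas, and 4 higher in GemC1 than in Mcidas, and DESeq2 called 2 lower in Mcidas (Neurod4 and Mfap4) and 1 higher in GemC1 than in Mcidas (Mfap4). Without Mcidas replicate 1, 3 were called lower in Mcidas.

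Neurod1, the bHLH factor that follows Eomes, had -0.33 ± 0.10 (SE) in GemC1 (adjusted p = 0.097) and -0.24 ± 0.10 in Mcidas (adjusted p = 0.356). Neurod2 had -0.23 ± 0.10 and -0.19 ± 0.10 in the same comparisons. The upper layer precursor gene Unc5d had -0.27 ± 0.10 and -0.22 ± 0.10, and Cux2 -0.26 ± 0.13 and -0.13 ± 0.13. Btg2, an antiproliferative gene of progenitors about to make neurons, had 0.24 ± 0.17 and -0.29 ± 0.17. None of these was called by edgeR, and DESeq2 called Neurod1 lower in GemC1.

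Among 31 proneural bHLH and related regulators, 1 rose and 3 fell in GemC1 and 1 fell in Mcidas, with medians of -0.16 and -0.10. Hes6 was the one that rose. The 3 that fell in GemC1 were Myt1l at -0.45 ± 0.09 (SE, adjusted p = 0.00878), Bhlhe22 at -1.01 ± 0.23 (adjusted p = 0.026) and Tcf4 at -0.27 ± 0.07 (adjusted p = 0.0475). Myt1l and Bhlhe22 are factors of postmitotic neurons and Tcf4 a general bHLH partner. DESeq2 called 7 lower in GemC1, whereas Myt1l alone was called without GemC1 replicate 2 or 3, and none without GFP replicate 2 or 3. Between GemC1 and Mcidas none was called by edgeR, with 3 higher and 6 lower at an unadjusted p under 0.05, while DESeq2 called 2 lower in GemC1 (Bhlhe22 and Myt1l).

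In the Notch pathway, 33 genes were tested, of which none was called in GemC1 and 1, Hes5, fell in Mcidas. At an unadjusted p under 0.05, 2 were higher and 5 lower in GemC1, and DESeq2 called Lfng higher and Hes1 lower there. Hes5, the Notch target that Bcl6 represses in cortical progenitors, was at 53.9 ± 7.88 CPM in GFP and 35.8 ± 5.82 CPM in Mcidas (SD, n = 3). Its difference on the log2 scale was -0.59 ± 0.14 (SE), with an adjusted p of 0.0337, and 7 of 16 alternatives ended the call, among them leaving out Mcidas replicate 1 or 2, GFP replicate 1 or 2, or GemC1 replicate 1. In Mcidas, 4 Notch genes were higher and 3 lower at an unadjusted p under 0.05, and DESeq2 called 1 higher and 2 lower. The ligands Dll1 and Dll3, which neurogenic cells present to their neighbours, had -0.14 ± 0.15 and 0.22 ± 0.13 in GemC1 and -0.17 ± 0.15 and 0.04 ± 0.13 in Mcidas, none called. Between GemC1 and Mcidas no Notch gene was called by edgeR or DESeq2, with 2 higher and 4 lower at an unadjusted p under 0.05 in GemC1. The median log2 fold change of the list was 0.02 in GemC1 and 0.00 in Mcidas.

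Genes of radial glia and of excitatory neurons, the cell types before and after intermediate progenitors, were read in the same fit. Of 20 radial glia genes edgeR called 3 higher in GemC1 and none lower (Fgfr2 at 0.64 ± 0.11, SE, adjusted p = 0.00556, Veph1 at 0.73 ± 0.16, adjusted p = 0.0177, and Aldoc at 0.53 ± 0.12, adjusted p = 0.0183). At an unadjusted p under 0.05, 8 were higher and 1 lower, and DESeq2 called 6 higher and 1, Hes1, lower. Summed radial glia levels were 2281 to 2884 CPM in GFP, 3195 to 3447 CPM in GemC1 and 2383 to 2973 CPM in Mcidas. In Mcidas, Fgfr2 rose by 0.79 ± 0.11 (adjusted p = 0.000832) and Hes5, also in that list, fell. Of 20 excitatory neuron genes 4 fell in GemC1 and none rose (edgeR, with 10 lower and 0 higher at an unadjusted p under 0.05, and 4 lower and 0 higher by DESeq2), among them Dcx (adjusted p = 0.0233), Bhlhe22 and Rbfox1 (adjusted p = 0.0387), and 1, Mef2c, rose in Mcidas (adjusted p = 0.0252). These counts turned on single libraries: for radial glia 1 rose without GemC1 replicate 2 or GFP replicate 3 and 5 without Mcidas replicate 1. For neurons none fell without GemC1 replicate 2 or GFP replicate 3 and 1 without GFP replicate 2, and Mef2c was not called without Mcidas replicate 2 or 3 or any GFP library. Summed levels of the neuron genes were 7204 to 8386 CPM in GFP, 5581 to 6660 CPM in GemC1 and 6442 to 7209 CPM in Mcidas. GemC1 thus lay outside the GFP range in both sums, above it for radial glia and below it for neurons, and Neurog2, Kif26b, Slc17a6 and Bcl6 lay below GFP in the same libraries. The part of such shifts in the values of the 10 genes was not tested. Between GemC1 and Mcidas edgeR called no gene of the radial glia list (4 higher and 1 lower at an unadjusted p under 0.05, and 3 higher by DESeq2). It called none of the excitatory neuron list either (0 higher and 4 lower at an unadjusted p under 0.05, and 3 lower by DESeq2).

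Some Cajal-Retzius cells, which are early neurons, express Eomes. Of 10 of their markers 7 were tested by edgeR, and Trp73 and Cacna2d2 rose in both factor groups (adjusted p = 1.25e-06 and 0.000232 in GemC1, 6.96e-07 and 9.58e-05 in Mcidas). Reln, their defining marker, was at 3.75 ± 1.56 CPM in GFP, 2.67 ± 1.03 CPM in GemC1 and 3.43 ± 1.46 CPM in Mcidas (SD, n = 3) and was not called. Nhlh2 had -1.29 ± 0.38 (SE) in GemC1 (edgeR adjusted p = 0.0753) and was called lower there by DESeq2. Trp73 is also a gene of the multiciliated programme.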

How the data were processed

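Amplified RNA (SMART-Seq v4) from 9 sorted samples was sequenced as Nextera XT libraries, per the labels' protocols; neither kit marks strand. Each library has 1 deposited table of whole-number read counts by Ensembl gene, per the file headers. Tools named in the submitters' processing notes, with no role, are HTSeq 0.5.3, STAR 2.5.2b and DESeq2 1.8.1, beside build mm10; annotation release and strand setting: not given in the sources used here. Of 53379 identifiers 53274 were matched to GENCODE M21 (GRCm38).

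The deposited counts were analysed with edgeR 4.0.16 in R 4.3.3. filterByExpr (minimum count 10, minimum total 15) kept 19572 genes, TMM scaled the libraries, and all 9 entered 1 quasi-likelihood fit with group as the only term (two-sided). The standard error of a log2 fold change was derived from the F statistic. Levels per kilobase used merged exon length. The scripts were tested on simulated data. Alternatives were DESeq2 1.42.0, DESeq2 size factors, other count filters, a replicate block, only the groups compared, without mitochondrial, haemoglobin and plasmid gene counts, and leaving out each library.

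The 10 genes, the gene lists and the rule for named genes were chosen with earlier results of these data known. The rule takes the 10 genes, up to 4 called genes of each list, a fixed set of neurogenic genes and relatives, and the 3 genes most like Eomes, Neurog2, Insm1 and Kif26b by Pearson correlation of log2 CPM, where the average log2 CPM was 3 or more. Genes named as called by an alternative alone fall outside it and were named after their values were seen. Promoter windows came from RefSeq. Within each group, libraries differed beyond counting error (chi-square over its degrees of freedom, 14.1 to 25.8), so none was treated as a copy. Results for some listed genes are not reported here.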

Additional observations from a re-analysis of the deposited data

How the results depend on the processing

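Of the 10 genes, the count called lower in GemC1 (1) was 2 with DESeq2 and 2 without a low-count filter, Bcl6 being added both times, and 0 to 1 when each library was left out in turn. Over all genes, 259 of 19572 were called lower in GemC1 as reported, 654 of 21066 with DESeq2 and 557 of 33356 without a filter. With 1 library left out that count ran from 32 (of 20028) to 267 (of 20247). The count called lower in Mcidas (3) ran from 1 to 6 when each library was left out, and was within 1.5 times of 3 under the other alternatives. Over all genes, 64 of 19572 were called lower in Mcidas as reported. With 1 library left out that count ran from 29 (of 20156) to 99 (of 20007). For GemC1 against Mcidas, DESeq2 called 1 higher (Kif26b) where edgeR called 0. Kif26b in Mcidas kept its call in all 16 alternatives. No call of the 10 genes changed sign. Same-numbered replicates did not deviate together (correlations of deviations from -0.07 to 0.05). This cannot show whether they shared a litter, day or surgery, which the labels do not say. With the replicate block the counts were 1 lower in GemC1, 2 lower in Mcidas (Kif26b and Bcl6, without Slc17a6) and 0 between the factors. Of all 19572 genes the block called 147 lower in GemC1, 46 lower in Mcidas, and 3 higher and 3 lower between the factors. Over all genes, DESeq2 called 174 higher and 286 lower in GemC1 against Mcidas, and edgeR without a filter 66 and 129, where edgeR as reported called 3 and 7. Why the tools differ was not tested. Neurog1, with 72 to 129 counts per library, has the fewest counts of the 10, which limits its precision.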
